A study of Mus musculus with 6 samples.

Results

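Cd79a, Cd79b, Vpreb1, Vpreb3, Igll1, Rag1, Pax5, Ebf1 and Il7r, the B-lymphoid precursor genes described here, were found by their symbols among the 44556 genes counted in RNA-seq libraries of newborn mouse parietal bone, and all 9 were present. The parietal bone is a flat bone of the skull vault, or calvaria, and the RNA was of the bone as a whole. It could thus come from bone-forming cells, marrow, blood, vessels and adhering tissue together. What share came from marrow or from blood was not tested. Of the libraries, 3 came from OsxCre mice and 3 from OsxCre;Stat3fl/fl littermates, all newborn and of the C57BL/6 strain. Both groups carried Cre under the Osterix (Osx) promoter, which is active mainly in osteoblast precursors, and the second group also carried homozygous floxed alleles of Stat3, a transcription factor activated by cytokine receptors. B-lineage cells were therefore not the cells in which the driver is known to act. The comparison asked whether the transcripts of early B cells in the bone differed between the genotypes.

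B cells form in marrow, and in newborns also in liver, from lymphoid progenitors that receive interleukin 7 through the receptor chain Il7r. The transcription factors Ebf1 and Pax5 open and then fix the B-cell programme, and Rag1 cuts the immunoglobulin genes for rearrangement. A new heavy chain is tested at the cell surface with a surrogate light chain made of Vpreb1 and Igll1 (also called lambda5), and Cd79a and Cd79b carry the signal of that pre-B-cell receptor and of the later B-cell receptor.

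None of the 9 genes differed detectably between OsxCre and OsxCre;Stat3fl/fl bones. The genes were rare in every library: the highest level was 8.65 CPM for Ebf1, and the largest count was 80 for Cd79b. CPM are counts scaled to a common library size, here after TMM adjustment. In edgeR's quasi-likelihood test 6 of the 9 had enough counts to be tested, and 0 were called lower and 0 higher at an adjusted p under 0.05. Of all 15600 genes tested 0.481% were called lower in OsxCre;Stat3fl/fl and 0.776% higher. At an unadjusted p under 0.05 the members gave 0 calls, against 16.4% of all genes, and their unadjusted p ranged from 0.317 to 0.663. For 0 of the 9 genes did all 3 libraries of one genotype lie outside the range of the other, which was the case for 23% of genes tested. In bulk tissue, fewer cells of a type and less RNA per cell cannot be told apart.

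The 6 libraries held 8193651 to 12080044 counts, so that a floor of 3 counts corresponded to 0.252 to 0.368 CPM. Stat3 itself, counted over the whole gene, was at 150, 135 and 141 CPM in the libraries labelled OsxCre and at 153, 155 and 155 CPM in those labelled OsxCre;Stat3fl/fl (adjusted p = 0.442, edgeR). A gene total also counts exons outside the floxed part and RNA of cells without Cre, so it does not check the genotype labels, and every direction given here rests on those labels. The osteoblast markers stood at a summed 13312 to 19313 CPM and the skeletal muscle markers at 20134 to 33477 CPM, so both bone and muscle RNA were abundant. In these 2 lists the bone matrix gene Ibsp (log2 fold change -0.66) and the muscle myosin Myh4 (-3.61) were lower in OsxCre;Stat3fl/fl, and the embryonic myosin Myh3 (1.71) was higher (edgeR adjusted p = 0.0213, 3.87e-05 and 0.0204). The study describes the newborns as male, yet Xist, the RNA of the inactive X chromosome, was at 881 to 1059 CPM in every library. Of 4 Y-linked genes, Ddx3y and Kdm5d were not counted in any library, and Eif2s3y and Uty had 1 count each, both in OsxCre;Stat3fl/fl replicate 2.

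Vpreb1 has a close paralog, Vpreb2, and the sequence of both is shown because it limits what a Vpreb1 count means. Of the 717 different 50-base stretches in the annotated Vpreb1 transcript, 32.5% also occur in Vpreb2, so a 50-base read from them could not be placed on one gene. The likeness runs on upstream of the annotated Vpreb1 start at chr16:16869255. Of the Vpreb1 sequence printed below, the last 50 bases lie after this start, inside the gene. How the Vpreb2 sequence lies relative to the annotated start of Vpreb2 is not given here. The stretches below are RefSeq promoter sequence of GRCm38.p6, 156 bases each, on the minus strand at chr16:16869206-16869361 for Vpreb1 and on the plus strand at chr16:17980315-17980470 for Vpreb2. Capitals mark the 3 positions at which they differ, and the remaining 98.1% of bases are identical.
Vpreb1: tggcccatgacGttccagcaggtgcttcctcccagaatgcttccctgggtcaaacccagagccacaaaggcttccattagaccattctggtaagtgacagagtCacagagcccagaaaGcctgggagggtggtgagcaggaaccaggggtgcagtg
Vpreb2: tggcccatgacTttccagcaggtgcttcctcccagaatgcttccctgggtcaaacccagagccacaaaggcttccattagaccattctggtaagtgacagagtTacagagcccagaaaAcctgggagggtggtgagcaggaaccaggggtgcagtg

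The promoters of 4 of the 8 members with a RefSeq window (250 bases before the gene start to 50 after it) held CAGGTG or its reverse complement CACCTG, the E-box read by the E2A protein in early B cells. These were Cd79a, Vpreb1, Igll1 and Rag1. Of all 32851 windows of this length, 20.2% held the same letters on either strand. Of the 4 windows, 3 are printed because they show the arrangement in a receptor gene, a surrogate light chain gene and the recombinase gene, with the E-box in capitals. They lie at chr7:24897247-24897546 on the plus strand for Cd79a, chr16:16863936-16864235 on the minus strand for Igll1 and chr2:101649483-101649782 on the minus strand for Rag1.
Cd79a: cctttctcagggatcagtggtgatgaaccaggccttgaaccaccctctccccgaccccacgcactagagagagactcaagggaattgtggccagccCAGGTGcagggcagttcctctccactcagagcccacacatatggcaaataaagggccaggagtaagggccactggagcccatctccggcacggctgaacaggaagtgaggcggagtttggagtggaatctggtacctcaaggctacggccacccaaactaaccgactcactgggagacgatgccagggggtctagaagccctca
Igll1: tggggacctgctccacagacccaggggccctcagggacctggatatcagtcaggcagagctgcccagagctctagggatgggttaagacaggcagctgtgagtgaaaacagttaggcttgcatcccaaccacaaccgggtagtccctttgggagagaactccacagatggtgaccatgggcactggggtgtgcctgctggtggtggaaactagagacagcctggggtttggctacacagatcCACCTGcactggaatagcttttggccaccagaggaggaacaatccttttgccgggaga
Rag1: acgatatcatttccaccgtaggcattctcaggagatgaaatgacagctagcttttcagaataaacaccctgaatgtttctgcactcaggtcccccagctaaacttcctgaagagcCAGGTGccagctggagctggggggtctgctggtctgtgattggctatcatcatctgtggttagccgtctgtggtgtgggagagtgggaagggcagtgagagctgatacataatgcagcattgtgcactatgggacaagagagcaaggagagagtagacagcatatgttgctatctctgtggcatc

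The E-box began 154 bases upstream of the start of Cd79a, 88 upstream of Vpreb1, 8 upstream of Igll1 and 135 upstream of Rag1, and that of Vpreb1 lies inside the stretch it shares with Vpreb2. The EBF core CCCNNGGG was found in Igll1, 231 bases upstream, and in 13.7% of all windows. The ETS-type site AGGAAGTG was found in Cd79a, 55 bases upstream, and in 4.07% of windows. TGGGAA, read by Ikaros proteins, was found in Rag1 and Ebf1 and in 25.6% of windows, and the STAT-type site TTCNNNGAA in Il7r, 142 bases upstream, and in 8.3% of windows. Both strands were searched, no 2 matches in a window overlapped, and a match describes the letters only.

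Cd79a and Cd79b are the signalling pair of the B-cell receptor, and in GRCm38.p6 they lie at chr7:24897497-24901858 and chr11:106311341-106314562. Cd79a had 23, 13 and 42 counts in the OsxCre libraries (2.19, 1.29 and 3.52 CPM) and 13, 17 and 22 in the OsxCre;Stat3fl/fl libraries (1.56, 2.08 and 2.57 CPM). The lowest and the highest of the 6 levels were both OsxCre libraries, and the OsxCre;Stat3fl/fl values fell between them. The means were 2.33 ± 1.13 and 2.07 ± 0.506 CPM (SD, n = 3 each), the log2 fold change was -0.18 (SE 0.40, 95% interval -1.11 to 0.75), and edgeR's adjusted p was 0.876. Without OsxCre replicate 3, the library with 42 counts, the log2 fold change of Cd79a was 0.25.

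Cd79b had 48, 38 and 80 counts in OsxCre (4.57, 3.77 and 6.71 CPM) and 61, 38 and 49 in OsxCre;Stat3fl/fl (7.33, 4.66 and 5.73 CPM). Replicate 1 of OsxCre;Stat3fl/fl was the highest and replicate 3 of OsxCre the next, so the groups overlapped. Its means were 5.02 ± 1.52 and 5.9 ± 1.34 CPM (SD, n = 3 each) and its log2 fold change was 0.23 (SE 0.28, 95% interval -0.42 to 0.88; edgeR adjusted p = 0.747). Exact two-sided permutation of the 6 libraries gave p = 0.8 for Cd79a and 0.5 for Cd79b, where 0.1 is the smallest value this design allows. Within a library Cd79b, with 1431 bases of exon, had 1.9 to 4.69 counts for each count of Cd79a, with 1457, and this ratio overlapped between genotypes as well.

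**Figure D1:**
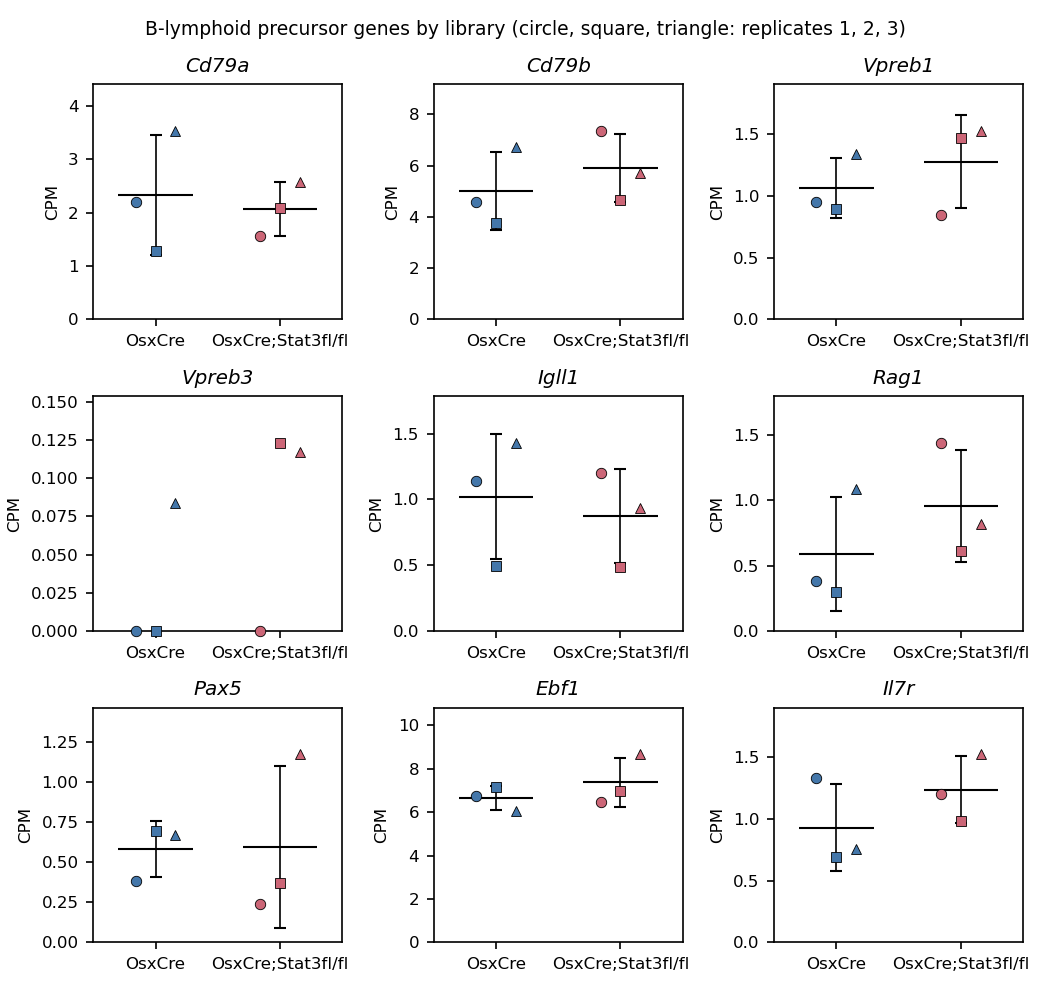
Levels of the 9 genes in CPM (vertical axes, each starting at 0) in the 3 OsxCre and 3 OsxCre;Stat3fl/fl libraries; points are libraries, horizontal lines means and bars 1 SD, not drawn for Vpreb3, which had 0 or 1 count in each library. The 2 groups overlap in every panel, and Ebf1, at 6.04 to 8.65 CPM, varied least among the libraries in proportion to its level.

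The surrogate light chain genes Vpreb1 and Igll1 lie close together on chromosome 16, at chr16:16868401-16869255 and chr16:16860671-16863985. Vpreb1 was counted 10, 9 and 16 times in OsxCre (0.952, 0.892 and 1.34 CPM) and 7, 12 and 13 times in OsxCre;Stat3fl/fl (0.841, 1.47 and 1.52 CPM). Igll1 was counted 12, 5 and 17 times in OsxCre (1.14, 0.496 and 1.43 CPM) and 10, 4 and 8 times in OsxCre;Stat3fl/fl (1.2, 0.49 and 0.936 CPM). For Vpreb1 the lowest value and the highest came from OsxCre;Stat3fl/fl, and for Igll1 the replicates numbered 2 were the low ones in both genotypes. The log2 fold changes were 0.25 for Vpreb1 (SE 0.36, 95% interval -0.59 to 1.10, adjusted p = 0.791) and -0.23 for Igll1 (SE 0.50, 95% interval -1.39 to 0.92, adjusted p = 0.87), both from edgeR.

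Within libraries the count ratio of Vpreb1 to Igll1 was 0.833, 1.8 and 0.941 in OsxCre and 0.7, 3 and 1.63 in OsxCre;Stat3fl/fl, with overlap (exact two-sided permutation p = 0.7 on the log2 scale). The sign for Igll1 turned when OsxCre replicate 3 was left out (0.09) and when OsxCre;Stat3fl/fl replicate 2 was left out (0.05). The paralog Vpreb2 had 5, 4 and 2 counts in OsxCre and 1, 1 and 2 in OsxCre;Stat3fl/fl, too few to be tested. How the counting treated reads that match both paralogs is not given in the sources used here, so the Vpreb1 and Vpreb2 counts are uncertain. Vpreb3, whose product binds heavy chains inside precursor cells, had 0, 0 and 1 counts in OsxCre and 0, 1 and 1 in OsxCre;Stat3fl/fl. Each of these is under the floor of 3 counts, so no fold is given.

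Rag1, at chr2:101638252-101649532, had 4, 3 and 13 counts in OsxCre (0.381, 0.297 and 1.09 CPM) and 12, 5 and 7 in OsxCre;Stat3fl/fl (1.44, 0.613 and 0.819 CPM). It did not pass the filter on low counts. The pooled OsxCre;Stat3fl/fl to OsxCre ratio of its scaled counts was 1.56, with an exact 95% interval of 0.825 to 2.97 that covers counting error only. Its partner Rag2 was near the floor, with 2, 0 and 1 counts in OsxCre and 4, 0 and 3 in OsxCre;Stat3fl/fl. Dntt, the enzyme that adds bases at the joints, had 1, 1 and 3 against 2, 2 and 0.

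Pax5, the factor that commits cells to the B lineage, had 4, 7 and 8 counts in OsxCre (0.381, 0.694 and 0.671 CPM) and 2, 3 and 10 in OsxCre;Stat3fl/fl (0.24, 0.368 and 1.17 CPM). It lies at chr4:44524748-44710694 and did not pass the filter either. The lowest and the highest libraries were both OsxCre;Stat3fl/fl, and the pooled ratio was 1.03 (exact 95% interval 0.485 to 2.13, counting error only).

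Ebf1, at chr11:44618100-45008096, was the most evenly expressed member, with 71, 72 and 72 counts in OsxCre (6.76, 7.14 and 6.04 CPM) and 54, 57 and 74 in OsxCre;Stat3fl/fl (6.48, 6.99 and 8.65 CPM). Only replicate 3 of OsxCre;Stat3fl/fl lay above the OsxCre range. The means were 6.65 ± 0.556 and 7.38 ± 1.14 CPM (SD, n = 3 each), and the log2 fold change was 0.15 (SE 0.19, 95% interval -0.28 to 0.58, edgeR adjusted p = 0.749). Of the members tested Ebf1 had the narrowest interval.

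Ebf1 is not restricted to B cells and is also made by mesenchymal and fat-forming cells. Its relative Ebf3, which belongs to the mesenchymal list, was at 52.1 to 65.1 CPM over the 6 libraries, and Ebf2 at 1.59 to 3.8 CPM. What share of the Ebf1 counts came from B-lineage cells was not tested. Ebf1 and Cd79b both lie on chromosome 11 with Stat3, 55.9 and 5.4 Mb from it.

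Il7r, the interleukin 7 receptor chain at chr15:9506159-9529941, had 14, 7 and 9 counts in OsxCre (1.33, 0.694 and 0.755 CPM) and 10, 8 and 13 in OsxCre;Stat3fl/fl (1.2, 0.981 and 1.52 CPM). In 2 OsxCre libraries the level was under that of all OsxCre;Stat3fl/fl libraries, and in the remaining OsxCre library it was inside their range. Its log2 fold change was the largest of the members tested, 0.41 (SE 0.39, 95% interval -0.48 to 1.31, edgeR adjusted p = 0.654). The ligand gene Il7 had 3, 3 and 1 counts in OsxCre and 2, 5 and 7 in OsxCre;Stat3fl/fl and was not tested.

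**Figure D2:**
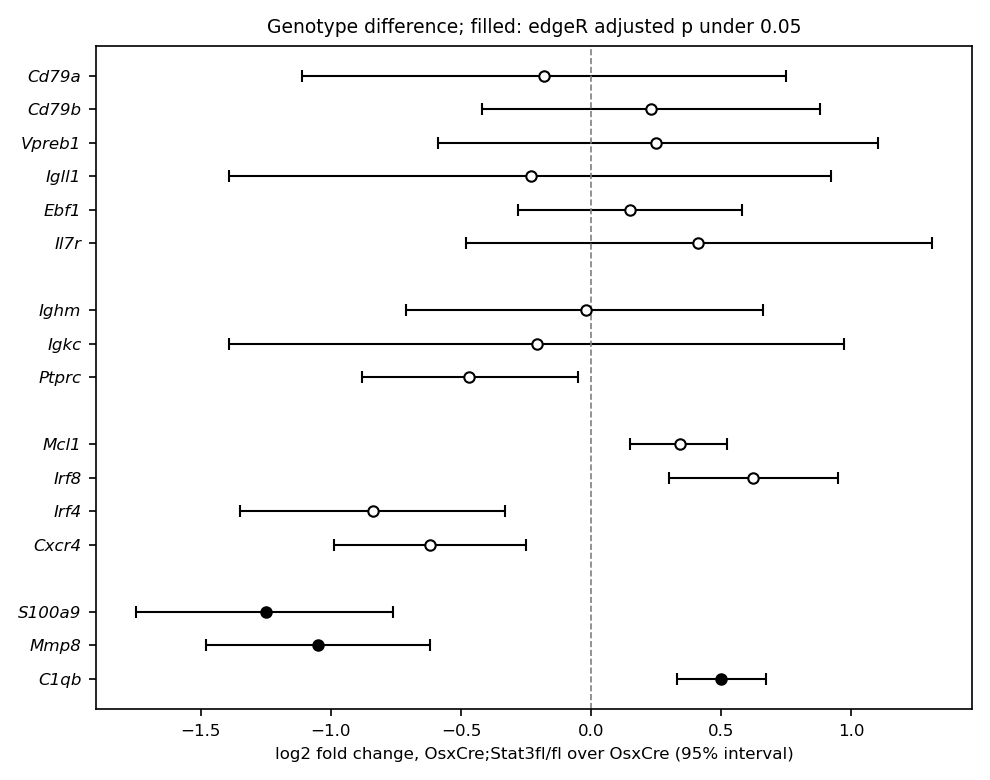
Log2 fold change of OsxCre;Stat3fl/fl over OsxCre (horizontal axis) with its 95% interval for the 6 tested members, for other genes of the B-cell pathway and for 3 genes of myeloid lists; filled circles have an edgeR adjusted p under 0.05. The intervals of all 6 members include 0, while S100a9 (-1.25) and Mmp8 (-1.05) were lower and C1qb (0.50) was higher. The pathway genes drawn are a selection and do not stand for the whole list: Irf4, Irf8 and Cxcr4 were chosen after their values were seen. Of all 73 pathway genes tested, 10 had an unadjusted edgeR p under 0.05, against 16.4% of all genes tested.

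The intervals show what these libraries could not resolve. For Igll1 the interval reached from -1.39 to 0.92, and for Ebf1 from -0.28 to 0.58. Over all genes tested the median width of the interval was 0.68, and the median log2 fold change was 0 with quartiles of -0.16 and 0.16. The 6 tested members ranged from -0.23 to 0.41, with 4 values above 0 and 2 below.

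Levels were compared between genes as CPM per kilobase of annotated exon. The length was that of all annotated exons together, which can exceed a coding transcript. It was 2164 bases for Igll1, whose coding transcripts hold 821 different 50-base stretches. For Vpreb1 these were 1113 and 717, and for Cd79a 1457 and 1408. The order, and the place of Igll1 in it most of all, thus depends on the annotation. Cd79b had the highest level, 3.81 ± 0.96 CPM per kilobase (SD over the 6 libraries), followed by Cd79a at 1.51 ± 0.545 and Vpreb1 at 1.05 ± 0.278. Ebf1 followed at 0.719 ± 0.0916, Igll1 at 0.438 ± 0.178, Il7r at 0.337 ± 0.102, Pax5 at 0.172 ± 0.0988, Rag1 at 0.117 ± 0.0661 and Vpreb3 at 0.0628 ± 0.0705. Only Cd79b and Cd79a, among neighbours in this order, had ranges that did not overlap over the 6 libraries. Within libraries, Cd79a exceeded Vpreb1, Vpreb1 exceeded Ebf1 and Il7r exceeded Pax5 in 6 of 6.

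**Figure D3:**
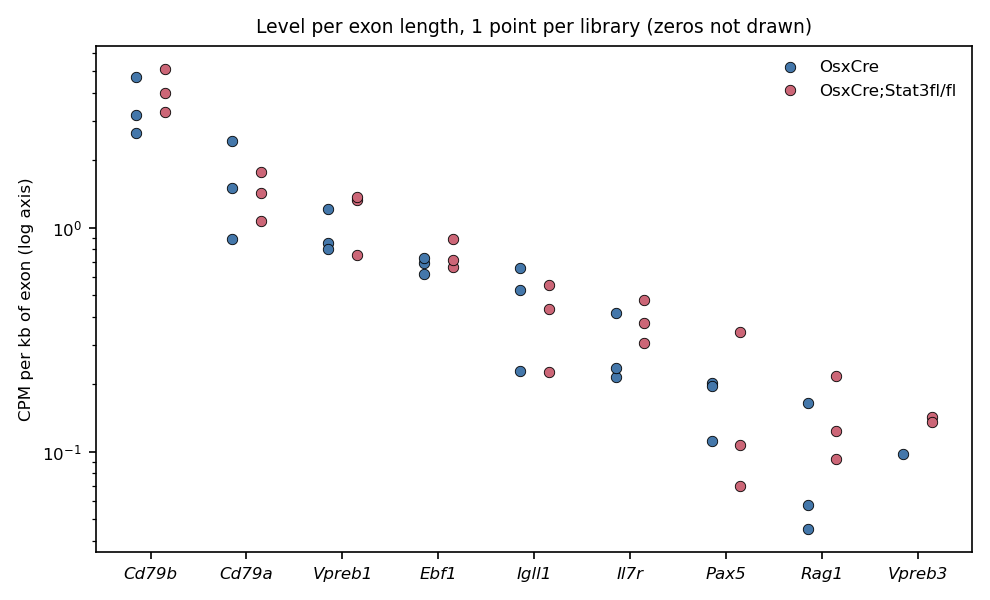
Level in CPM per kilobase of exon (logarithmic vertical axis) of the 9 genes in order of their mean, with 1 point for each OsxCre and OsxCre;Stat3fl/fl library; values of 0, which occur for Vpreb3 only, are not drawn. Cd79b lies at 2.63 to 5.12 CPM per kilobase, above every value of Cd79a (0.885 to 2.42).

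The libraries with the highest and lowest values of the members are given as description only, because the same was not counted over all genes. Leaving out Vpreb3, the highest of the 6 values was in OsxCre;Stat3fl/fl replicate 3 for 4 genes, in OsxCre replicate 3 for 2 and in OsxCre;Stat3fl/fl replicate 1 for 2. The lowest was in OsxCre replicate 2 for 4 genes and in OsxCre;Stat3fl/fl replicate 1 for 2. For 1 gene it was in OsxCre replicate 3, and for 1 in OsxCre;Stat3fl/fl replicate 2. The summed level of the 9 genes was 17.7, 15.3 and 21.7 CPM in OsxCre and 20.3, 17.8 and 23 CPM in OsxCre;Stat3fl/fl.

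Outside the members, 92 further genes of the B-cell pathway were listed, of which 73 were tested. They comprised surface proteins of precursors, receptor signalling, immunoglobulin constant regions, recombination, transcription factors, interleukin 7 signalling and the marrow niche. In edgeR's test 0 were called lower and 0 higher, and their median log2 fold change was -0.05. Of the 73, 10 had an unadjusted edgeR p under 0.05, against 16.4% of all genes tested. The groups did not overlap for 13, against 23% of all genes tested. With the DESeq2 Wald test 1 was called higher, Mcl1, a survival factor downstream of interleukin 7. Mcl1 was at 228 ± 15.3 CPM in OsxCre and 289 ± 7.88 CPM in OsxCre;Stat3fl/fl (SD, n = 3 each, edgeR adjusted p = 0.0956). What share of its counts came from B-lineage cells was not tested. The interleukin 7 signalling list, which includes Il7r, had 13 tested genes, 6 with a positive and 7 with a negative log2 fold change (median -0.06).

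Of the immunoglobulin constant regions, Ighm had the most counts. Ighm, the constant region of the first heavy chain made, had 138, 132 and 267 counts in OsxCre and 145, 84 and 173 in OsxCre;Stat3fl/fl. OsxCre replicate 3 was again the highest, and the log2 fold change was -0.02 (SE 0.30, 95% interval -0.71 to 0.66, edgeR adjusted p = 0.982). Igkc, the kappa light chain constant region, had 14, 16 and 45 counts against 14, 9 and 26. Per kilobase of exon, Ighm was at 11.9 ± 3.93 CPM in OsxCre and 11.7 ± 3.75 in OsxCre;Stat3fl/fl, and Igkc at 6.91 ± 4.16 and 6.01 ± 3.08 (SD, n = 3 each). Iglc1, a lambda constant region, had 1 to 10 counts. Ighg1 and Ighg2b had 0 counts in all libraries, and Igha had 3 counts in OsxCre;Stat3fl/fl replicate 2 and 0 elsewhere.

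Counts on variable segments were few and scattered. Of 183 heavy chain segments in the files (Ighv) 14 had any count, with 15 counts in OsxCre and 8 in OsxCre;Stat3fl/fl in total. Of 162 kappa segments (Igkv) 24 had a count, with 25 and 20, and all 3 lambda segments (Iglv) had one, with 2 and 4. The most counted single segment, Igkv5-43, had 6 counts over all libraries.

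Among surface genes, the ones with the highest level, Cd93, Cd24a and Kit, are shared with other marrow or vessel cells and gave log2 fold changes of -0.28, 0.05 and 0.27 with edgeR adjusted p of 0.369, 0.892 and 0.39. In signalling, the kinases Fyn and Syk and the lipid kinase subunit Pik3cd gave log2 fold changes of 0.05, -0.16 and 0.08. In recombination, the DNA-bending proteins Hmgb1 and Hmgb2 and the repair subunit Xrcc5 gave -0.06, 0.33 and -0.40. These 6 had edgeR adjusted p from 0.165 to 0.901.

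In the transcription factor list, which includes Ebf1, 0 of 19 tested genes were called. The E proteins Tcf12 and Tcf3 and their inhibitor Id3 gave log2 fold changes of 0.01, -0.06 and 0.01. Irf4 and Irf8, which act at the pre-B stage and also in plasma cells and myeloid cells, were named after their values were seen: Irf4 was 4.59 ± 0.151 CPM in OsxCre and 2.55 ± 0.436 in OsxCre;Stat3fl/fl. Irf8 was 9.92 ± 1.03 and 15.3 ± 1.22 CPM (SD, n = 3 each). Neither passed the test (edgeR adjusted p = 0.123 and 0.0861), although the groups did not overlap for either, which was so for 23% of all genes tested. Bcl11a had 177 counts in OsxCre replicate 2 and 21 to 32 in the other libraries.

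The niche genes with the highest level, Igf1, Cxcl12 and Vcam1, gave log2 fold changes of -0.18, -0.05 and 0.10. Cxcr4, the receptor by which precursors are held near Cxcl12, was named after its values were seen. It was 10.8 ± 1.1 CPM in OsxCre and 7.02 ± 0.517 CPM in OsxCre;Stat3fl/fl (SD, n = 3 each, edgeR adjusted p = 0.118). Its groups did not overlap, which was so for 23% of all genes tested. Many marrow cells other than B cells make Cxcr4.

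Markers of other stages and lineages bear on what the members measured. Of the mature B-cell list, 0 of the 5 genes tested were called. Cr2 had 0 counts in all libraries, Fcer2a 0 or 1 and Ighd 0 to 3, while Ms4a1 (CD20) had 13, 12 and 17 counts in OsxCre and 5, 3 and 10 in OsxCre;Stat3fl/fl (log2 fold change -0.83, edgeR adjusted p = 0.388). Cd37, a surface protein shared by B and myeloid cells, was 11.8 ± 1.61 and 6.1 ± 1.21 CPM (SD, n = 3 each; edgeR adjusted p = 0.0728). Cd55 and Cd40, the other genes of the list with the highest level, gave log2 fold changes of 0.08 and -0.40 (edgeR adjusted p = 0.804 and 0.516). The T-cell gene Cd3e had 0 to 3 counts in each library and Cd8a had 0. The other plasma cell and T-cell genes of highest level, Xbp1, Sdc1 and Prdm1, and Thy1, Tcf7 and Cd4, are made in many tissues and were not called.

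Genes of other blood lineages were called. In the neutrophil precursor list 2 of 11 tested genes were called lower, S100a9 at 127, 145 and 212 CPM in OsxCre and 74.9, 52.5 and 76 CPM in OsxCre;Stat3fl/fl, and Mmp8 (edgeR adjusted p = 0.0423 and 0.0456). The list did not move as 1 group: 8 of its tested genes had a negative log2 fold change and 3 a positive one. Ltf (-1.68), Camp (-1.83) and Csf3r (-0.75) were lower without overlap but not called (edgeR adjusted p = 0.0571, 0.0959 and 0.175). Of the 11 genes, 8 had an unadjusted edgeR p under 0.05 in either direction, against 16.4% of all genes tested. No overlap was seen for 7, against 23%. The early granule genes Mpo (0.18), Prtn3 (0.44) and Ctsg (-0.06) overlapped between genotypes, and Lcn2 was at 0.78 without overlap (edgeR adjusted p = 0.159). The list's summed level, 320 to 546 CPM in OsxCre and 183 to 250 CPM in OsxCre;Stat3fl/fl, came largely from S100a9 and S100a8 (162 and 97.2 CPM on average in OsxCre). In the macrophage list 1 of 12 was called, the complement gene C1qb, which was higher (log2 fold change 0.50, edgeR adjusted p = 0.0253), and in the plasmacytoid dendritic cell list Bst2, an interferon-induced gene, was higher (0.67, adjusted p = 0.0445). The erythroid sum was 5938 to 8265 CPM against 2968 to 5310 CPM with 0 of 8 genes called. All 8 had a negative log2 fold change. Of them, 4 had an unadjusted edgeR p under 0.05, against 16.4% of all genes tested, and 3 did not overlap, against 23%. In the megakaryocyte, endothelial, mesenchymal and Stat3-related lists 0 genes were called. The part of these other cells in the members' values was not tested. The Stat3-related list, which includes Stat3, had 4 tested genes, 3 with a positive and 1 with a negative log2 fold change. The groups did not overlap for any of these 4, against 23% of all genes tested. The pan-haematopoietic sum was 337 to 360 CPM against 335 to 353 CPM.

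**Figure D4:**
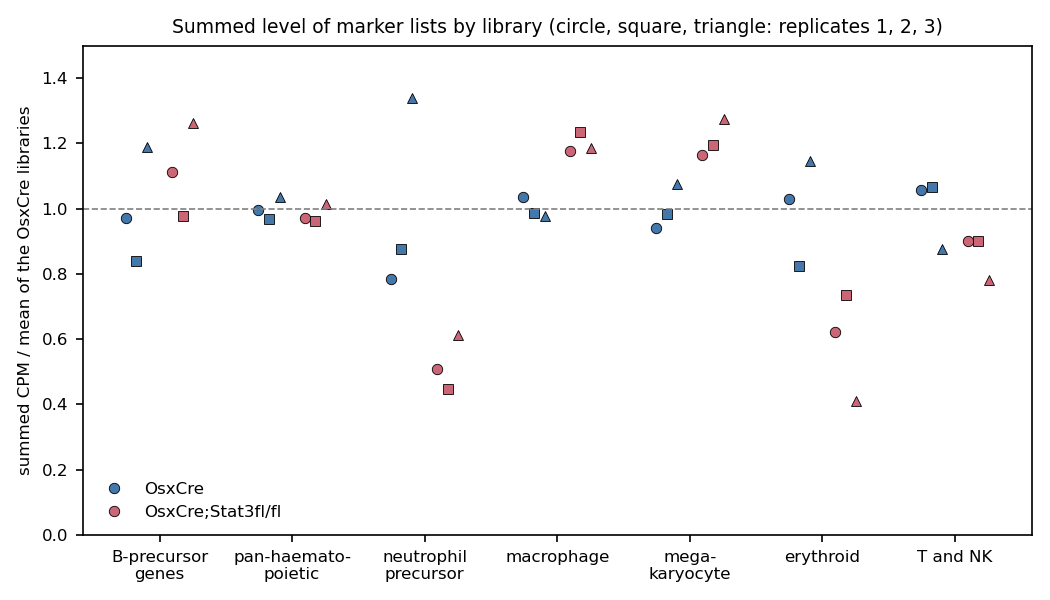
Summed CPM of 7 gene lists in each library, divided by the mean of the 3 OsxCre libraries (vertical axis from 0, dashed line at 1). The B-precursor and pan-haematopoietic sums overlap between genotypes. The neutrophil precursor and erythroid sums are lower in all 3 OsxCre;Stat3fl/fl libraries, and the macrophage and megakaryocyte sums are higher. The neutrophil precursor sum is mainly S100a9 and S100a8, and Ltf and Camp were lower with it, while Mpo, Prtn3 and Lcn2 were not.

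Members were also expressed relative to Ptprc (CD45), the surface protein of white blood cells. Ptprc had 171, 173 and 260 counts in OsxCre and 102, 94 and 139 in OsxCre;Stat3fl/fl (log2 fold change -0.47, edgeR adjusted p = 0.253). Relative to it, 5 of the 9 members, Cd79b, Vpreb1, Rag1, Ebf1 and Il7r, were higher in all 3 OsxCre;Stat3fl/fl libraries than in any OsxCre library. For Cd79b the ratio was 0.281, 0.22 and 0.308 in OsxCre and 0.598, 0.404 and 0.353 in OsxCre;Stat3fl/fl. Of all genes tested 34.9% showed the same separation in this direction when divided by Ptprc. Divided by the summed pan-haematopoietic list in place of Ptprc, 0 of the 9 members were free of overlap. With that denominator 21.5% of all genes tested were free of overlap in either direction, and 12.2% were higher in OsxCre;Stat3fl/fl.

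The genes whose profile over the 6 libraries was most like the mean profile of Cd79a, Cd79b, Vpreb1, Vpreb3 and Igll1 were Helz2, Car2, Flt1, Fbln7 and Cd101. Likeness was the root mean square difference of centred log2 CPM (pseudocount 0.5), which was 0.045 for Helz2 and Car2, 0.058 for Flt1, 0.059 for Fbln7 and 0.069 for Cd101, against a median of 0.281 over 15525 candidate genes. The mean profile was lowest in OsxCre replicate 2 (-0.37) and highest in OsxCre replicate 3 (0.33). None of these 5 genes was called between genotypes (edgeR adjusted p from 0.799 to 0.98), and Cd79a, Vpreb1, Vpreb3 and Igll1 enter the mean with few counts.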

How the data were processed

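RNA of parietal bone was sequenced as polyA libraries (Illumina TruSeq, Trizol extraction) in 3 OsxCre and 3 OsxCre;Stat3fl/fl newborns. The authors deposited 1 file of raw counts per gene for each library, not normalized. The submitters' processing notes name HISAT2 and GRCm38, the study's methods describe TopHat, Cufflinks and mm9, and the program, annotation and strand setting that made the counts are not given in the sources used here. Exon lengths and transcripts were from the GENCODE annotation of mm9, and coordinates and promoters from RefSeq GRCm38.p6.

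Counts were tested with edgeR 4.0.16 in R 4.3.3 (TMM scaling, filterByExpr with a minimum count of 10 and a total of 15, quasi-likelihood F test, two-sided, Benjamini-Hochberg over the 15600 genes kept), with groups from the sample labels. Libraries held 8193651 to 12080044 counts, and intervals and floors cover counting error only where stated. Whether the libraries came from separate animals is given only as n in the study's methods, so p-values measure the spread between these samples. Alternatives were another scaling, no filter or a stricter one, DESeq2 1.42.0, limma-voom (limma 3.58.1), a replicate block, robust estimation and leaving out each library. The procedure was tested on simulated data with changed genes drawn at random from all genes kept. That does not show its power at the low counts of the members.

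The members and gene lists were chosen with earlier results of these data known. Named genes were the members, Stat3, every called gene of a list or otherwise up to 3 with the highest mean CPM, and 5 of nearest profile. Any other gene named was chosen after its values were seen. Motifs, variable segments, gene pairs and denominators were added after the values were seen. The result for 1 gene of the pathway lists is left out here.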

Additional observations from a re-analysis of the deposited data

How the results depend on the processing

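No member was called in either direction under any of the 9 other settings or the 6 fits that left out 1 library, and the smallest adjusted p of a tested member over all of them was 0.455. Cd79b, Vpreb1, Ebf1 and Il7r kept a positive log2 fold change throughout. That of Cd79a ranged from -0.47 to 0.25 with 1 library left out, turning to 0.25 without OsxCre replicate 3, and that of Igll1 from -0.55 to 0.09, at 0.09 without OsxCre replicate 3 and 0.05 without OsxCre;Stat3fl/fl replicate 2. Members free of overlap between genotypes numbered 0 to 2 with 1 library left out: 1 without OsxCre replicate 1, 2 without OsxCre replicate 3, 2 without OsxCre;Stat3fl/fl replicate 1 and 1 without OsxCre;Stat3fl/fl replicate 3, where fewer libraries make overlap less likely by construction. No share of all genes is given for those fits, so the counts of members without overlap are description only. Pathway genes called numbered 0 except for 1 higher, Mcl1, with the DESeq2 Wald test.

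Over all genes, 75 were called lower and 121 higher. The lower count was 114 with library totals in place of TMM, 178 without a filter and 222 with DESeq2, and 5 to 36 with 1 library left out. The higher count was 250 without a filter, 305 with DESeq2 and 7 to 67 with 1 library left out. The cause was not tested, except that leaving out a library leaves fewer samples. With the replicate number as a block, 1 gene was lower and 0 higher. Same-numbered libraries had correlations of -0.102, -0.518 and -0.085 between their deviations from the group means. This gave no sign that the numbers paired the samples, but it cannot show that they were unpaired. With no filter edgeR gave Rag1 0.64 on the log2 scale (adjusted p = 0.728) and Pax5 0.02 (adjusted p = 0.99). Depth limits Vpreb3, Rag1 and Pax5 most.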
